A study of Homo sapiens with 6 samples.

Results

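The genes of the cytosolic ribosomal proteins are described here in PANC-1, a human line derived from a pancreatic carcinoma, treated with a compound that the labels name CMR or kept as controls. Members were the protein-coding genes whose symbol is RPL or RPS with a number, RPLP0 to RPLP2 or RPSA, which gave 82 genes (50 of the large and 32 of the small subunit) of 58825 genes in the table. The symbol rule itself used no measured value, but the members were chosen with earlier results of these data known. The symbols leave out FAU and RACK1, which also belong to the mature ribosome and are given apart, and take in paralogs such as RPS27L, RPL36AL, RPL39L, RPL3L and RPL10L. The CMR group consisted of 3 libraries of cells kept with 8 µM CMR for 48 h. The control group, called CON, consisted of 3 libraries, and what those cells received was not stated in the sources used here. No genetic change is labelled in either group, and the full name of CMR is not given. The labels do not say whether replicate libraries are separate cultures, so the p-values cover the spread among these 6 libraries alone, which could be technical.

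The cytosolic ribosome translates nuclear-encoded mRNA. Its small subunit reads the mRNA, its large subunit joins the amino acids, and each protein is normally needed in a single copy per ribosome except those of the P stalk, so cells keep the supply of the different proteins in balance. Most of these mRNAs begin with a 5′ terminal oligopyrimidine tract, a run of C and U bases that starts with a C at the first base. Through this tract and the protein LARP1, the mTOR kinase complex mTORC1 controls how strongly the mRNAs are translated and how long they are kept, a control of which total mRNA levels show only a part. Tumour cells commonly carry large amounts of these mRNAs.

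The CMR libraries held 66460535 to 70129221 counts each and the control libraries 51147268 to 63811430. The labelled cell type was checked on marker genes. KRT8, a keratin of simple epithelia, was at 475, 422 and 249 normalised CPM with CMR and at 1261, 1516 and 1352 normalised CPM in controls, and 4 of 6 epithelial markers were called lower with CMR (KRT8, KRT18, KRT7 and KRT19), a count of 2 without CMR replicate 2, CMR replicate 3, CON replicate 1 or CON replicate 2 and of 3 without CON replicate 3. Among all tested genes 3476 of 19200 were called lower. KRT8 and KRT18 overlap on opposite strands, KRT18 with 65.6% of the counts of KRT8, and the strand setting of the counting is not given. Of 5 adipocyte markers, checked because a protocol text names an adipose source, no gene passed the filter on low counts, and no library was above 0.397 normalised CPM for any of them. The leukocyte markers PTPRC and CD3E and the haemoglobin gene HBB were at or under 0.075 normalised CPM, HBA1, another haemoglobin gene, was at 0.103 to 0.305 with CMR and 0.207 to 0.401 in controls, and CD68, which many cell types also express, was at 64.3 to 79.6 with CMR and 65.6 to 82.0 in controls. Normalised CPM are counts scaled to library size (CPM) after TMM scaling, which sets the libraries to a common composition. In bulk RNA of this kind, fewer cells of a type and less RNA per cell cannot be told apart.

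The mRNA starts of the members called different below are shown first, because the pyrimidine tract is the feature that ties these genes together. Each line holds 10 bases before and 20 bases from a RefSeq transcript start (GRCh38.p14, read along the gene's strand), with the tract in capitals where one was found at or within 5 bases of the start. Where a gene had several listed starts, one with a tract was taken first. This applies to RPL10, which had 3. RPL10, RPS13 and RPS18 were higher with CMR, and the others were lower. RPS2 and RPL23A, also lower, are not in the table of starts.
RPL10 (chrX:154398367-154398396, plus strand): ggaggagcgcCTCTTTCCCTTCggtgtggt
RPS13 (chr11:17077648-17077677, minus strand): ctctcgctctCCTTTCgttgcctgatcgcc
RPS18 (chr6:33272065-33272094, plus strand): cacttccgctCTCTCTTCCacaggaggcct
RPL7A (chr9:133348208-133348237, plus strand): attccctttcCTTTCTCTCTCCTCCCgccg
RPL35 (chr9:124861938-124861967, minus strand): cgcctacttcCTCTTTCCCTCggagcgggc
RPL22 (chr1:6199576-6199605, minus strand): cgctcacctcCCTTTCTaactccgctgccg
RPL36 (chr19:5690285-5690314, plus strand): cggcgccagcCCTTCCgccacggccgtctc
RPL36AL (chr14:49620607-49620636, minus strand): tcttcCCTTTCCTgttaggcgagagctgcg
RPS26 (chr12:56041908-56041937, plus strand): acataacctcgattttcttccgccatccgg
RPS15 (chr19:1438386-1438415, plus strand): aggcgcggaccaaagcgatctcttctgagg

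Of the 82 members, 65 had a start in the RefSeq table, and 46 of these (70.8%) had a C followed by at least 4 bases that are C or T exactly at a listed start. The same motif, read on the gene's strand only, stood at a listed start of 5.14% of all 27305 symbols in that table. With a start allowed within 5 bases, the shares were 83.1% of the members and 25.2% of all symbols. The share at the start was 28 of 40 (70%) in the large and 18 of 25 (72%) in the small subunit. RPL10 has a tract of 12 bases at the start chosen for it and RPL7A one of 16 bases, while none began within 5 bases of the start in RPS26 and RPS15. A tract at the start was found in members on both sides of the comparison, in 3 of 3 called higher, 4 of 7 called lower and 39 of 54 not called. These matches describe the annotated starts and do not show which start the cells used.

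One CMR library stood apart from the other 2 in these genes and bears on every result below. The first CMR replicate had the highest level of the 3 CMR libraries in 71 of the 80 tested members. Its median log2 ratio to the control mean was 0.09, against -0.11 and -0.12 in CMR replicates 2 and 3, and the 3 control libraries were between -0.03 and 0.02. Results are therefore given with and without it where it moved them.

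In all, the ribosomal protein mRNAs were near the control level after CMR while a large part of the transcriptome was not. Of the 80 members that passed the filter on low counts (48 large, 32 small), 12 (15%) were called different at an adjusted p under 0.05 in edgeR (quasi-likelihood F test, p-values adjusted by Benjamini-Hochberg over all 19200 tested genes). The share called among all tested genes was 38.6%. RPL10, RPS13 and RPS18 were higher, 3 of 80 members, where 20.5% of all tested genes were called higher. RPL36, RPL7A, RPS26, RPS15, RPS2, RPL36AL, RPL35, RPL22 and RPL23A were lower, 9 of 80 members, where 18.1% of all tested genes were called lower. None of the 80 was called at 2-fold or more, a size that 18.4% of all tested genes reached. Without the first CMR replicate, 25 members were called, 4 higher and 21 lower, against 38.9% of all 19839 genes then tested, and these 25 included all 12. Leaving out 1 other library gave 7 (CMR replicate 2), 8 (CMR replicate 3), 3 (CON replicate 1), 6 (CON replicate 2) and 8 called members (CON replicate 3), while the shares called among all tested genes were 31.1, 31.6, 28.1, 28.5 and 29.7%.

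The fold changes of the members were narrowly spread. Their median log2 fold change, CMR over CON, was -0.02, with quartiles of -0.19 and 0.09, where all tested genes had a median of -0.01 and quartiles of -0.59 and 0.57. The highest was 0.45 (RPL4), and 78 of 80 were within 0.5 of 0 on the log2 scale. Their median standard error was 0.098 and that of all tested genes 0.226. Among the tested genes that averaged 100 normalised CPM or more, 62.0% were called, and among the members above that level 10 of 73 (13.7%) were called. Of the other genes above that level, 1479 of 2327 (63.6%) were called with a median standard error of 0.104, against 0.092 for the members. Mitochondrial ribosomal protein genes, a separate set that serves the ribosome of the organelle, had 27 of 78 called (34.6%), 12 higher and 15 lower. Of all tested genes 38.6% were called, and the median level of this set was 45.5 normalised CPM.

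**Figure D1:**
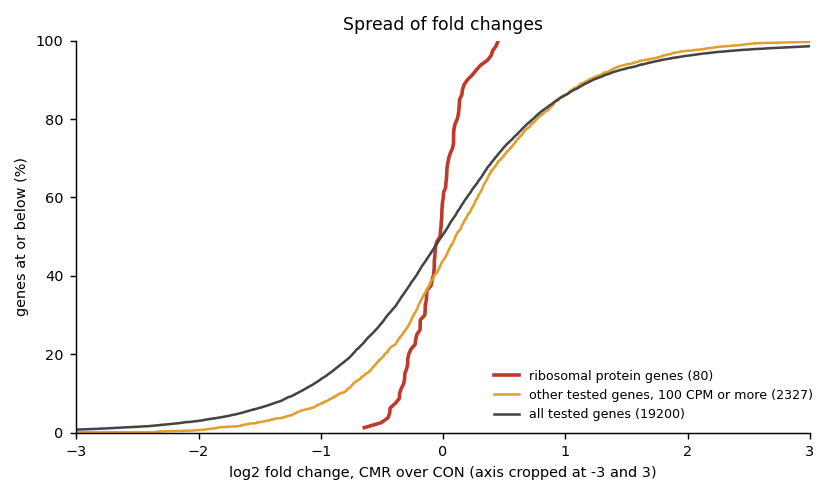
Cumulative share of genes (vertical axis, %) at or below each log2 fold change, CMR over CON (horizontal axis), for the 80 tested ribosomal protein genes, for 2327 other genes of 100 CPM or more and for all 19200 tested genes. Nearly the whole curve of the ribosomal protein genes (78 of 80) climbs within 0.5 of 0, while the other curves extend past 1 on both sides.

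The part of each library taken by ribosomal protein mRNA overlapped between the groups. The members held 4.13, 3.57 and 3.55% of the gene counts with CMR and 4.05, 4.04 and 3.84% in controls. The group means were 3.75 ± 0.33% with CMR and 3.98 ± 0.12% in controls (SD, n = 3 each), a difference of -0.23 percentage points. The first CMR library was above every control and the other 2 CMR libraries were below every control. Without that library, singled out by its levels in these same genes, the difference was -0.42 percentage points and the groups necessarily did not overlap. It was -0.14 without CMR replicate 2, -0.13 without CMR replicate 3 and -0.03 as a share of FPKM. Pseudogenes named for members, 453 of 1132 with any count, held 0.217, 0.184 and 0.186% with CMR and 0.227, 0.217 and 0.223% in controls. How the authors' counting divided reads between the members and these near copies was not stated, so each member's level is uncertain to that extent.

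Levels per length are given as the deposited FPKM. RPS16, a small-subunit protein near the decoding site, was the most abundant member at 1237, 984 and 1060 FPKM with CMR and 1206, 1157 and 1106 FPKM in controls. RPS12 followed at 595 ± 42 FPKM with CMR and 573 ± 13 FPKM in controls (SD, n = 3 each), and RPL41, which encodes the smallest ribosomal protein, at 464 ± 30 FPKM with CMR and 537 ± 33 FPKM in controls. With the summed gene counts taken as depth, count and FPKM implied a length 1.19 times the annotated exons at the median. A larger depth behind the FPKM would give the same factor, and this was not tested. The annotated exons of RPS16 cover 2603 bases and its median coding transcript 557.5, against 767 and 631 for RPS12. FPKM thus orders members in part by their annotation. RPS12 was the 2nd by FPKM and the 26th by CPM per kilobase of its median coding transcript. RPS16 was 1st on both scales. The adjusted p of RPS16, RPS12 and RPL41 was 0.97, 0.20 and 0.21 by edgeR's quasi-likelihood test, with log2 fold changes of -0.00, 0.13 and -0.13.

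At the low end by FPKM were the paralogs RPL10L, RPL3L, RPS27L and RPL39L, together with RPS29, which ranked 79th. The paralog RPL36AL ranked 31st. By CPM per kilobase of the median coding transcript RPL39L ranked 80th and RPS27L 79th. RPL10L, a copy of RPL10 known from the male germ line, had no count in any library, which allows at most 0.0428 to 0.0451 CPM in a CMR library and 0.0470 to 0.0587 CPM in a control library (3 counts of the library, counting error only). RPL3L, a copy of RPL3 known from heart and skeletal muscle, had 8, 0 and 0 counts with CMR and 12, 4 and 8 counts in controls. Neither was tested. RPS27L, a copy of RPS27, was the lowest tested member by FPKM at 1.80, 1.89 and 2.08 FPKM with CMR and 2.12, 2.45 and 1.92 FPKM in controls, and the groups overlapped. RPS27L lies beside LACTB on the other strand, which overlaps it and had 118% of its counts. RPL31, RPL28, RPS29, RPL6, RPL17, RPS28, RPS25, RPS10 and RPS3A also overlap a gene with 10% or more of their counts.

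**Figure D2:**
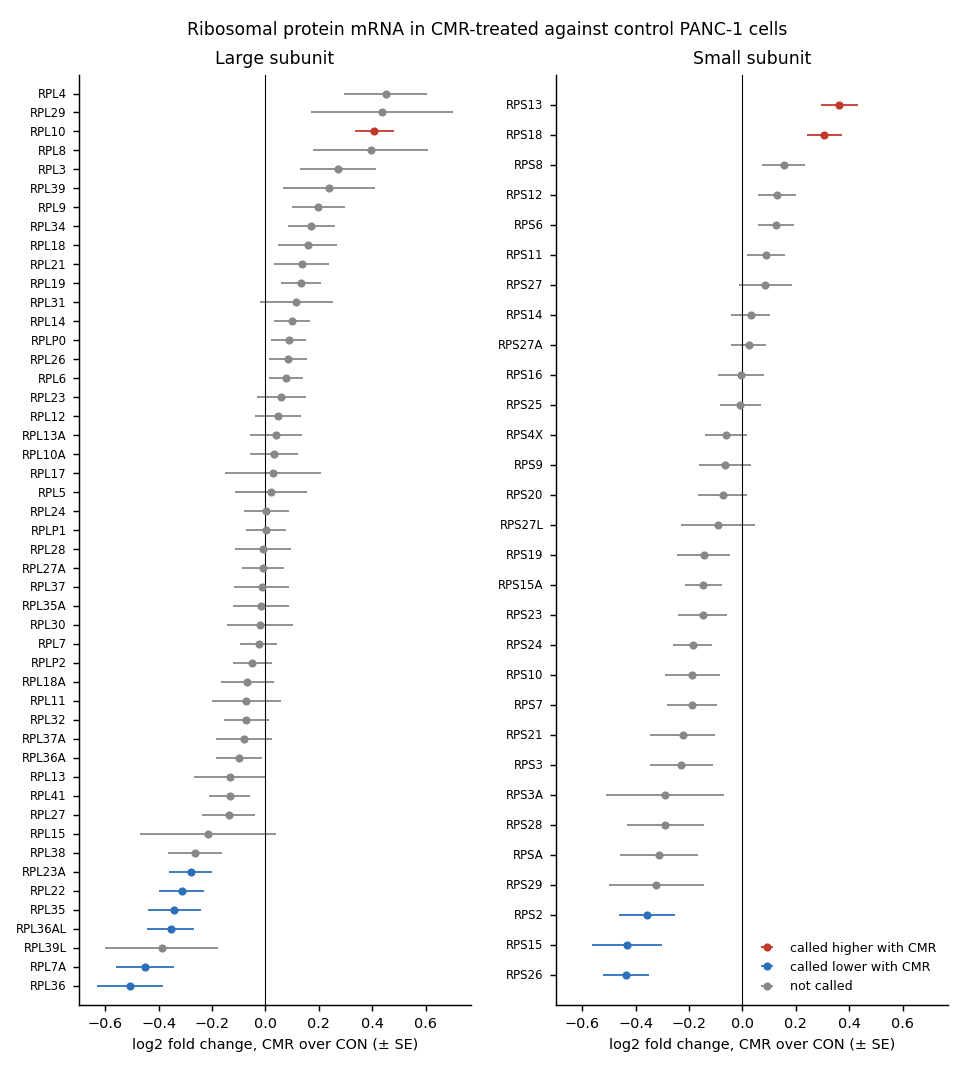
Log2 fold change, CMR over CON, with its standard error (horizontal axis) for the large-subunit (left) and small-subunit (right) genes tested and reported here, with colours for genes called higher, called lower and not called. The members called higher lie between 0.31 and 0.41 and those called lower between -0.51 and -0.28, while several members as far from 0, such as RPL4 and RPL29, have wider errors.

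Higher with CMR were RPL10 of the large subunit and RPS13 and RPS18 of the small subunit. RPL10, also called uL16, is added late in large-subunit maturation and sits beside the peptidyl transferase centre. It was at 1443, 1254 and 1394 normalised CPM with CMR and at 1044, 1022 and 1019 normalised CPM in controls. All 3 CMR libraries were above all controls, 1.33-fold on the means, with a log2 fold change of 0.41 ± 0.07 (SE) and an adjusted p of 0.0045 by edgeR's quasi-likelihood test.

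RPS13, a protein of the platform of the small subunit, was at 367, 344 and 377 normalised CPM with CMR and at 282, 283 and 282 normalised CPM in controls. The controls were nearly identical, and all CMR libraries were above them, 1.29-fold on the means (log2 fold change 0.36 ± 0.07 SE, edgeR adjusted p = 0.0059). RPS18, a protein of the head of the small subunit, was at 947, 874 and 931 normalised CPM with CMR and at 722, 744 and 759 normalised CPM in controls. The groups did not overlap, with a log2 fold change of 0.31 ± 0.07 (SE) and an edgeR adjusted p of 0.0095, but the call was lost without the first control replicate (0.0501) and with upper-quartile scaling (0.0774). RPL10, RPS13 and, among the lower members, RPS26 were called under all 17 alternatives.

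In the large subunit, 6 members were lower. RPL36 had the largest fall among the called members, at 59.3, 47.1 and 55.0 normalised CPM with CMR and 81.1, 80.4 and 67.8 normalised CPM in controls. The groups did not overlap, and the log2 fold change was -0.51 ± 0.12 (SE, edgeR adjusted p = 0.016), with an adjusted p of 0.05001, 0.0650 and 0.0625 without CMR replicate 2, CON replicate 1 and CON replicate 2. RPL36 shares its place on chromosome 19 with LONP1, the mitochondrial protease, on the other strand. LONP1 had 164% of the counts of RPL36 and a log2 fold change of 1.45, and since the strand setting of the counting is not given, reads of the pair cannot be told apart.

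RPL7A, which binds early assembling large-subunit RNA, was at 586, 517 and 442 normalised CPM with CMR and at 727, 703 and 681 normalised CPM in controls. Its groups did not overlap (log2 fold change -0.45 ± 0.11 SE, edgeR adjusted p = 0.015), and the adjusted p was 0.0573 without CON replicate 1 and 0.05004 without CON replicate 2. RPL35, which lies near the exit of the nascent peptide tunnel, was at 259, 218 and 211 normalised CPM with CMR and at 302, 290 and 279 normalised CPM in controls. The groups again did not overlap, at a log2 fold change of -0.34 ± 0.10 (SE, edgeR adjusted p = 0.030), and leaving out any library but CMR replicate 1 took the adjusted p to between 0.0605 and 0.107.

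RPL22, a protein that cells can do without and that also binds other RNAs, was at 555, 532 and 466 normalised CPM with CMR and at 634, 657 and 640 normalised CPM in controls. RPL23A, where the signal recognition particle docks, was at 903, 770 and 775 normalised CPM with CMR and at 985, 989 and 999 normalised CPM in controls. Neither gene's groups overlapped. Their edgeR adjusted p was 0.022 for RPL22 and 0.031 for RPL23A, with log2 fold changes of -0.31 and -0.28. Without CON replicate 1, 2 or 3 the adjusted p of RPL22 was 0.0653, 0.0824 and 0.0635. RPL23A lost its call in 7 of 17 alternatives, among them leaving out any library but CMR replicate 1, up to an adjusted p of 0.098, and is named although it fell outside the rule for named genes.

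The sixth was RPL36AL, a close paralog of RPL36A on another chromosome. RPL36AL was at 104, 99.8 and 89.5 normalised CPM with CMR and at 122, 125 and 128 normalised CPM in controls, without overlap (log2 fold change -0.36 ± 0.09 SE, edgeR adjusted p = 0.017). Without CON replicate 1, 2 or 3 its adjusted p was 0.0519, 0.0608 and 0.0642. RPL36A itself was at 413, 358 and 358 normalised CPM with CMR and at 391, 391 and 427 normalised CPM in controls, where the groups overlapped (adjusted p = 0.42).

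Over the coding length of 318 bases (GENCODE release 29) RPL36AL and RPL36A are 89.9% identical, and reads must cover one of the 32 differing bases to be told apart. The ratio of RPL36AL to RPL36A by FPKM was 134, 148 and 133% with CMR and 166, 170 and 160% in controls. All CMR libraries were below all controls, a log2 difference of -0.26. The exact two-sided permutation test over libraries gave p = 0.1, the smallest that 3 against 3 allows, and 0.3 adjusted over the 3 pairs. RPS27L to RPS27 (77.8% identical) had a log2 difference of -0.17 (exact permutation p = 0.5), and RPL39L to RPL39 (94.8% identical, 8 of 153 bases) one of -0.57 (exact permutation p = 0.3). In both of these pairs the groups overlapped. The ratio of RPL39L to RPL39 by FPKM was 10.1, 6.2 and 9.1% with CMR and 14.2, 14.7 and 9.0% in controls. By counts it was 4.9, 3.0 and 4.4% with CMR and 6.9, 7.1 and 4.4% in controls. The level of RPL39L alone had a log2 fold change of -0.39 with an edgeR adjusted p of 0.20, and of 0.0421 without CON replicate 3. RPL3L and RPL10L had libraries without counts and gave no ratio.

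In the small subunit, 3 members were lower. RPS26, which lies at the mRNA exit channel, was at 241, 216 and 216 normalised CPM with CMR and at 326, 293 and 292 normalised CPM in controls. The groups were well apart, at a log2 fold change of -0.44 ± 0.09 (SE, edgeR adjusted p = 0.0064). RPS15, of the head of the subunit, was at 57.4, 54.9 and 43.6 normalised CPM with CMR and at 75.9, 70.2 and 64.3 normalised CPM in controls. Its log2 fold change was -0.43 ± 0.13 (SE, edgeR adjusted p = 0.036), and leaving out any library but CMR replicate 1 took the adjusted p to between 0.0555 and 0.128. RPS2, at the mRNA entry channel, was at 898, 713 and 799 normalised CPM with CMR and at 1118, 950 and 1019 normalised CPM in controls. The RPS2 groups did not overlap, at a log2 fold change of -0.36 ± 0.11 (SE, edgeR adjusted p = 0.033), and the adjusted p was 0.0926, 0.0752, 0.12 and 0.0812 without CMR replicates 2 and 3 and CON replicates 1 and 3 and 0.0554 with no filter on low counts.

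**Figure D3:**
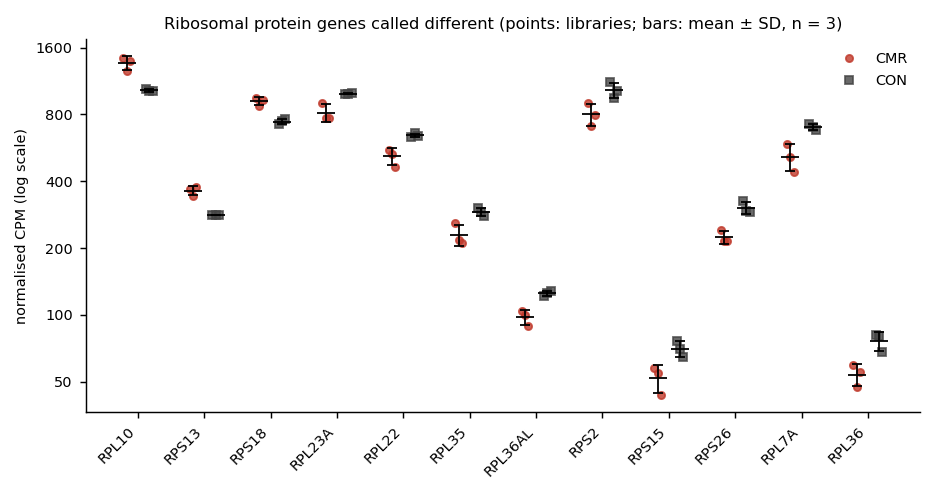
Normalised CPM on a log scale (vertical axis) of the 12 ribosomal protein genes called different, by library, with CMR left and CON right for each gene and bars for the mean ± SD (n = 3 each). In each of the 12 genes the 3 CMR points lie wholly above or wholly below the 3 CON points.

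Beyond the calls, the ranges of the groups did not overlap in 25 of the 80 members, 11 with CMR higher and 14 with CMR lower, where 53.9% of all tested genes did not overlap. Of the 13 such members that were not called, RPL4, a large-subunit protein lining the peptide tunnel, came nearest. RPL4 was at 1540, 1447 and 1368 normalised CPM with CMR and at 1211, 1177 and 801 normalised CPM in controls. The third control was far below the other 2, and the log2 fold change of 0.45 ± 0.16 (SE) had an edgeR adjusted p of 0.057, with a call in 2 of 17 alternatives (DESeq2 and the fit with the replicate number as a block).

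In 11 members the highest library of a group exceeded the lowest by more than 1.5 times, among them RPL29, RPL15, RPL8, RPL39L, RPL17, RPL39, RPS3A, RPL4 and RPS29. RPL8 was at 841, 780 and 728 normalised CPM with CMR and at 511, 824 and 453 normalised CPM in controls, so that 1 control lay among the CMR libraries and the others far below. Without that control, the second replicate, RPL8 had an edgeR adjusted p of 0.0064 and a log2 fold change of 0.70, against 0.19 and 0.39 with all libraries. That control was singled out by its level of RPL8, so the lower p follows from the choice. RPL8 was not called in 16 of 17 alternatives, up to an edgeR adjusted p of 0.44 without CON replicate 3. RPL29 was at 124, 271 and 229 normalised CPM with CMR and at 173, 138 and 150 normalised CPM in controls. Its first CMR library was below all controls and the other 2 were above all of them.

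**Figure D4:**
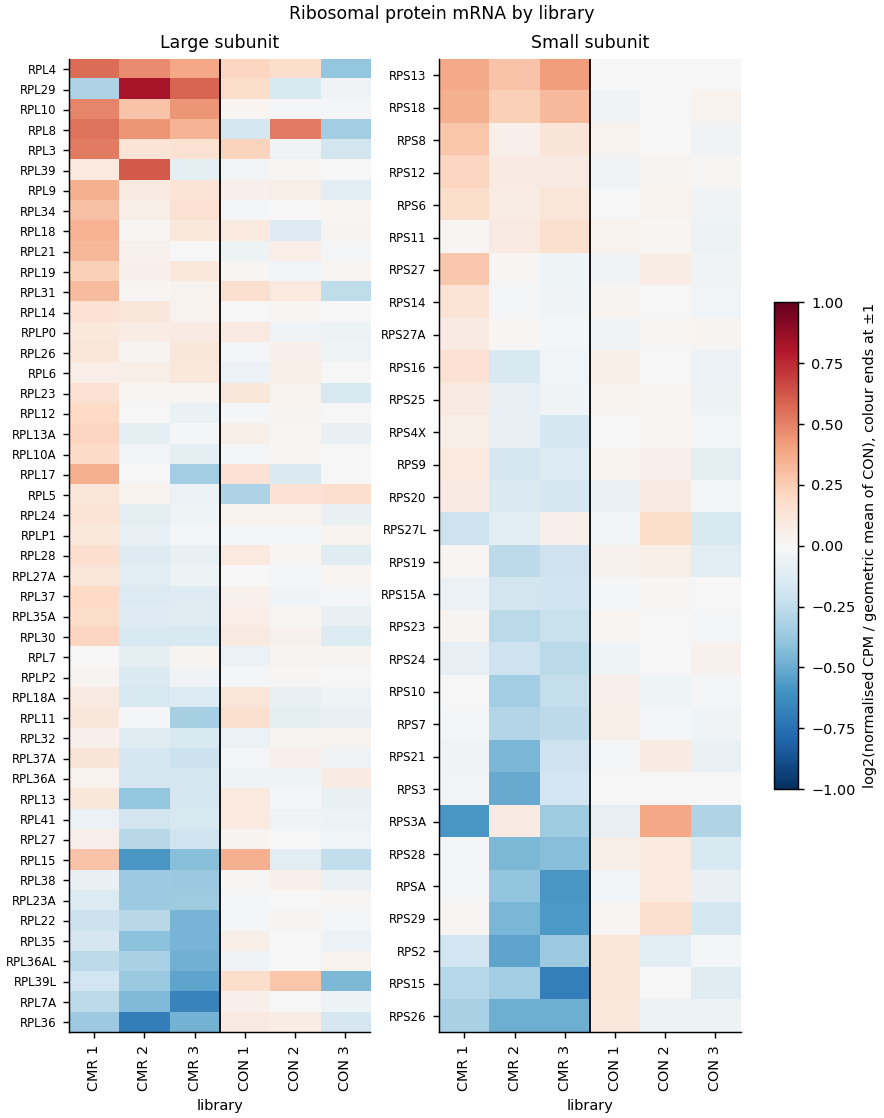
Log2 ratio of normalised CPM to the geometric mean of the control libraries (colour, ending at ±1) for the tested ribosomal protein genes reported here (rows, by subunit, in the order of their fold change) in the 6 libraries (columns, CMR left). The first CMR column is redder than the other 2 in most rows (highest in 71 of 80), and single dark cells mark members with 1 library apart, such as RPL29.

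Members that are often used to follow ribosome assembly and signalling were near the control level. The P-stalk genes, which recruit the translation GTPases, had log2 fold changes of 0.09 for RPLP0, 0.00 for RPLP1 and -0.05 for RPLP2, with edgeR adjusted p between 0.36 and 0.98. RPL5 and RPL11, which with 5S rRNA can bind and inhibit the ubiquitin ligase MDM2, had log2 fold changes of 0.02 and -0.07 (edgeR adjusted p = 0.92 and 0.70). RPL5 was at 386, 364 and 341 normalised CPM with CMR and at 286, 391 and 397 normalised CPM in controls, so the groups overlapped and the first control was the lowest. RPS6, the substrate of S6 kinase, was at 428, 400 and 413 normalised CPM with CMR and at 379, 389 and 370 normalised CPM in controls, without overlap but not called (adjusted p = 0.19). RPS27A, which is made as a fusion with ubiquitin, had a log2 fold change of 0.02.

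RPSA, the laminin-receptor protein of the small subunit, was at 516, 396 and 348 normalised CPM with CMR and at 511, 559 and 496 normalised CPM in controls. With all libraries RPSA was not called (log2 fold change -0.31 ± 0.15 SE, edgeR adjusted p = 0.13), and without the first CMR library it was (log2 fold change -0.49, adjusted p = 0.0077). Of the ribosomal proteins outside the symbol rule, FAU was at 199, 167 and 194 normalised CPM with CMR and at 151, 151 and 148 normalised CPM in controls. FAU was called higher (log2 fold change 0.31 ± 0.09 SE, edgeR adjusted p = 0.029), beside SYVN1, a gene that overlaps it, had 51.5% of its counts and a log2 fold change of 2.10. The call of FAU was lost in 11 of 17 alternatives, up to an adjusted p of 0.15, among them the replicate block (0.054) and leaving out any library but CMR replicate 2 (0.059 without CMR replicate 1). RACK1 was not called (edgeR adjusted p = 0.82), nor were the paralogs RPL22L1, RPL26L1 and RPL7L1, whose log2 fold changes were between -0.01 and 0.05.

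The large and small subunits were compared next. Of the 48 large-subunit members 1 was higher and 6 lower, and of the 32 small-subunit members 2 were higher and 3 lower. The median log2 fold change was -0.00 in the large subunit (24 members above 0 and 24 below) and -0.15 in the small subunit (9 above 0 and 23 below). Per library, the large-subunit median log2 ratio to the control mean was above the small-subunit one by 0.11, 0.08 and 0.12 with CMR and by 0.02, -0.00 and 0.00 in controls, so the CMR libraries lay above the controls. Without the first CMR replicate, 8 large-subunit members and 13 small-subunit members were lower and 2 of each were higher. That is 20.8% of the large and 46.9% of the small subunit called, beside 38.9% of all genes then tested, with medians of -0.08 and -0.18. Without CMR replicate 2 the medians were 0.04 and -0.09, and without CON replicate 2 they were -0.00 and -0.09. Leaving out CMR replicate 3 or CON replicate 1 put the large-subunit median at 0.04 and 0.02, and leaving out CON replicate 3 put it at -0.01. With the members that had a library apart left out, the medians were -0.01 and -0.08.

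The summed counts of the large subunit were 1.35, 1.34 and 1.29 times those of the small subunit with CMR and 1.24, 1.22 and 1.21 times in controls. The mean ratio was 1.33 ± 0.03 with CMR and 1.22 ± 0.01 in controls (SD, n = 3 each), and the groups did not overlap. This sum leans on abundant members. With RPL10 and RPL4 left out, the ratios were 1.18, 1.17 and 1.12 with CMR and 1.11, 1.10 and 1.10 in controls, a difference of 0.052 against 0.102. With the 11 members that had a library apart left out, the difference was 0.037, again without overlap. The ratio of summed FPKM was 1.12, 1.12 and 1.07 with CMR and 1.08, 1.07 and 1.07 in controls, and there the groups overlapped, as did the ratio of the median CPM of the subunits (0.924 with CMR and 0.927 in controls).

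**Figure D5:**
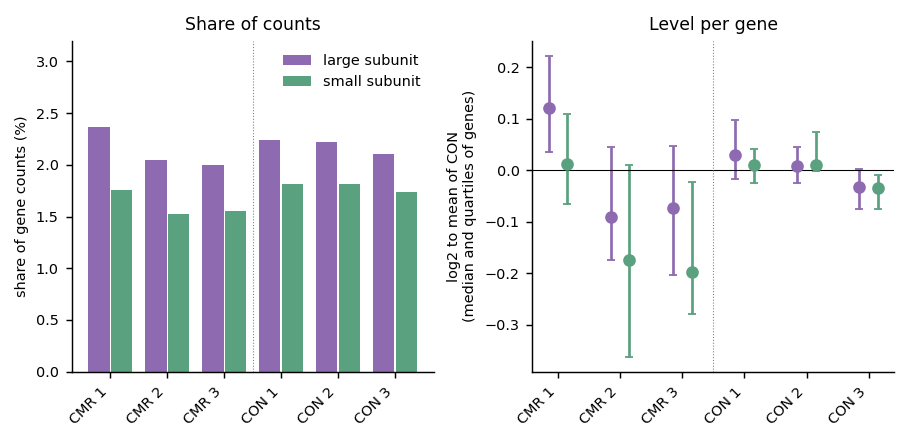
Left, share of all gene counts (%) held by large- and small-subunit genes in each library (horizontal axis, CMR left of the dotted line). Right, median log2 ratio to the mean of the control libraries over the 48 large- and 32 small-subunit genes, with bars for the quartiles over genes. In the 3 CMR libraries the large-subunit median lies above the small-subunit median by 0.08 to 0.12.

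Genes that share the tract or act on it were looked at beside the members. Of 17 other mRNAs known to carry such a tract, 4 were higher and 1 was lower, 29.4% called against 38.6% of all tested genes. EIF3F, a subunit of the initiation factor eIF3, was at 241, 270 and 259 normalised CPM with CMR and at 177, 173 and 165 normalised CPM in controls (log2 fold change 0.58 ± 0.08 SE, edgeR adjusted p = 0.0014). EIF3H, of the same factor, had a log2 fold change of 0.36, and the histone chaperone NAP1L1 one of -0.38 (edgeR adjusted p = 0.014 and 0.032). EIF3F was called in all 17 alternatives, EIF3H lost its call in 2 (up to an adjusted p of 0.060, without CON replicate 2 and with upper-quartile scaling) and NAP1L1 in 5 (up to 0.10, 4 of them without CMR replicates 1 and 2 and CON replicates 1 and 3). With upper-quartile scaling, which lowers the median of all tested genes to -0.14, 1 of the 17 was higher and 3 were lower.

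Of 13 genes of the mTORC1 and LARP pathway that acts on the tract, 5 (38.5%) were called by edgeR, where 38.6% of all tested genes were, and all 5 were higher. None was lower by edgeR, DESeq2 or limma, DESeq2 called 6 higher, and 7 of the 13 had an unadjusted edgeR p under 0.05. LARP1B, a homologue of LARP1, was at 110, 147 and 150 normalised CPM with CMR and at 45.2, 51.5 and 46.3 normalised CPM in controls, without overlap (log2 fold change 1.51 ± 0.14 SE, edgeR adjusted p = 0.00032). TSC1, which restrains mTORC1, had a log2 fold change of 0.95, and the other genes called higher were MTOR, AKT1S1 and LARP1. LARP1 lost its call in 3 of 17 alternatives, up to an adjusted p of 0.061 (2 of them without CON replicate 1 and CON replicate 2). AKT1S1 (log2 fold change 0.45) overlaps TBC1D17 on the other strand, which had 36.0% of its counts and a log2 fold change of 1.12. The strand setting of the counting is not given, so reads of this pair cannot be told apart. Of 12 chaperones and import receptors that escort new ribosomal proteins, LTV1 and TNPO1 were higher and IPO5, HEATR3, IPO9 and IPO7 were lower, 50% called against 38.6% of all tested genes. Without CON replicate 1 none was higher and 2 were lower, and without CMR replicate 3, CON replicate 2 or CON replicate 3 there were 1 higher and 2 lower. IPO5 and IPO9 were called in all 17 alternatives. IPO5 was at 171, 179 and 163 normalised CPM with CMR and at 263, 340 and 280 normalised CPM in controls (log2 fold change -0.78 ± 0.11 SE). LTV1, needed for small-subunit maturation, had a log2 fold change of 0.50, TNPO1 one of 0.44 and HEATR3, an escort of RPL5, one of -0.47. Of the 17 alternatives, LTV1 lost its call in 6 (edgeR adjusted p up to 0.082) and IPO7 in 5 (up to 0.11). HEATR3 lost its call in 4 (up to 0.097) and TNPO1 in 1 (0.053, without CON replicate 1). Of 5 genes of the MDM2 and MYC branch, NOP53 was called higher (log2 fold change 0.52), 20% called against 38.6% of all tested genes. MDM2, MDM4 and MYC were among those not called by edgeR, MDM2 with an adjusted p of 0.068. All 5 had a log2 fold change above 0, 3 had an unadjusted edgeR p under 0.05, and DESeq2 called 3 higher.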

How the data were processed

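Poly(A)-selected RNA made up the 6 PANC-1 libraries, 3 per group, per the labels' protocols, which also name an adipose source and poly(A)- fractions. Tools named in the submitters' processing notes are HISAT2 2.0, StringTie 1.3.0 and Bowtie 0.12.2, with the mouse build mm8. Identifiers in the table are human. Of these, 81.2% of the 58597 found in GENCODE release 29 have its GRCh38 position, so coordinates were read as GRCh38. The deposited count values are whole numbers per gene without normalization, per the file headers. In the deposited FPKM values the authors divided by length and depth, with 0 listed as 0.0001.

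Counts were tested with edgeR 4.0.16 (R 4.3.3; TMM, filterByExpr with a minimum count of 10 and total of 15, quasi-likelihood, Benjamini-Hochberg over 19200 genes), and called at an adjusted p under 0.05. The script was tested on simulated data. DESeq2 1.42.0 and limma 3.58.1 (pseudocounts 1 and 0.1, mean FPKM of at least 1) were among 17 alternatives. The table had 0 columns of no sample. Replicate numbers were not used as pairs in the main fit, and a fit with them as a block was an alternative.

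The members, the lists and the tests were chosen with earlier results of these data known. Named genes were up to 5 called genes per direction and subunit, the P-stalk, RPL5, RPL11, RPS6, RPSA, RPS27A, paralog pairs, the 3 highest and 3 lowest by FPKM, untested members, all genes of the ribosomal lists outside the symbol rule, and up to 2 called genes per direction of the others. Others are named by a stated count or library spread and were chosen after their values were seen. Transcript starts came from RefSeq (GRCh38.p14), and 82 of 82 members matched GENCODE. Some genes and a sequence are not reported here.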

Additional observations from a re-analysis of the deposited data

How the results depend on the processing

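The 12 called members ranged from 3 (without CON replicate 1) to 25 (without CMR replicate 1) when 1 library was left out, and those called lower from 1 to 21. With the replicate number as a block, 13 members were called, 5 of them higher. Same-numbered libraries correlated by 0.034, 0.044 and 0.052 in their deviations from the group means, each best with its own number. Libraries of different numbers correlated by -0.031 to -0.0099. All of these correlations were weak, so whether the numbers mark pairs is not settled, and the main fit did not use them. With upper-quartile scaling 14 members were lower, and the median log2 fold changes were -0.13 in the large and -0.27 in the small subunit, beside -0.14 over all tested genes. The difference in the ratio of large to small subunit counts was 0.102, or 0.052 without RPL10 and RPL4, 0.037 without members with a library apart, 0.026 by FPKM and -0.0023 by median CPM, settings chosen after seeing the data. The cause of these shifts was not tested.

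Over the named members, 412 values kept direction and side of the threshold, 28 lost the call, 6 gained it and 30 changed sign, none of them called. The log2 fold change was -0.043 for RPLP0, -0.13 for RPLP1, -0.11 for RPL5, -0.0037 for RPS6, -0.11 for RPS27A and -0.042 for RPS27 with upper-quartile scaling. The log2 fold change was -0.069 for RPLP1, -0.050 for RPL5 and -0.048 for RPS27A with library totals. The log2 fold change was -0.076 for RPLP1, -0.042 for RPL5 and -0.054 for RPS27A by limma with a pseudocount of 1. The log2 fold change was -0.077 for RPLP1, -0.042 for RPL5 and -0.054 for RPS27A by limma with a pseudocount of 0.1. The log2 fold change was 0.012 for RPLP2 and 0.014 for RPS16 with a length trend removed. Leaving out 1 library at a time gave -0.055 to 0.044 for RPLP1, -0.12 to 0.10 for RPL5, -0.18 to 0.042 for RPL11, -0.010 to 0.041 for RPS27A, -0.17 to 0.0072 for RPS27L, -0.019 to 0.14 for RPS27 and -0.090 to 0.064 for RPS16. RPL3L and RPL10L had too few counts to be tested, and 3 libraries per group limit what could be called.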

Other observations

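Of 17 genes that detect and clear stalled ribosomes, 11 (64.7%) were called higher with CMR and none lower by edgeR. Among all tested genes 20.5% were called higher, and 38.6% in either direction. Of the 2400 at 100 normalised CPM or more, 870 were called higher and 619 lower. The median level of the 17 was 92.8 normalised CPM. Of the 17, 12 were at an unadjusted edgeR p under 0.05, the median log2 fold change was 0.41, and 3 had a log2 fold change below 0. ANKZF1, which releases stalled peptides from the large subunit, was at 34.2, 37.5 and 38.8 normalised CPM with CMR and at 9.0, 8.2 and 9.3 normalised CPM in controls. The groups were far apart (log2 fold change 2.06 ± 0.12 SE, edgeR adjusted p = 6.85e-05). PELO, which splits stalled ribosomes, had a log2 fold change of 1.56. Under the alternatives 8 to 12 of the 17 were higher, 11 without the first CMR library, and 1 was lower by limma on FPKM and with upper-quartile scaling.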
